A study of Microcebus murinus with 18 samples.

Results

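The genes described here encode hnRNPs and splicing factors, and were followed in the temporal cortex of the grey mouse lemur, Microcebus murinus, a small primate. The list named 59 genes by symbol, and its members were all the probe sets of the human HG-U133 Plus 2.0 array annotated to one of those symbols. Of the 54675 probe sets on the array, 226 carried a member symbol, and 210 of them carried no other symbol. A probe set is a group of short probes that together measure a transcript. After a filter on low signals (at least 150 on at least 3 of the 18 arrays, whatever the group), 14567 probe sets were kept, and 129 of them carried 1 member symbol and represented 54 of the 59 genes. HNRNPF and SF1 had no probe set above the filter. HNRNPH2, SRSF2 and SRSF9 were carried only by probe sets with several symbols and were not described one by one. All 59 symbols name a gene in the mouse lemur RefSeq annotation.

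The animals were all born in captivity and formed 3 groups. The young adult group held 6 animals aged 1 year, of which 4 were female. The old group held 10 healthy animals, aged 8 years per the study's methods, of which 7 were female. The AD-like group held 2 old females with a mean age of 10 years and cerebral beta-amyloid plaques. The study also reports cortical atrophy and dilated lateral ventricles in AD-like animals. It saw no difference in cortex thickness or ventricle shape between young and healthy old animals. The labels name no treatment. Each animal gave 1 array, so the animal was the replicate. The study's table of animals gives ages that spread over several years within the old and the AD-like groups. The AD-like group had no male and a higher mean age than the old group. With its size, this limits every comparison made with it. In whole tissue, fewer cells of a type and less RNA per cell cannot be told apart.

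Splicing removes introns from the pre-mRNA and joins its exons. The spliceosome does this work from small nuclear ribonucleoproteins (snRNPs), built on Sm proteins. SR proteins mostly bind exons and favour their inclusion, whereas many hnRNPs, which coat the nascent transcript, oppose it, and factors such as RBFOX1, NOVA1, PTBP2 and the CELF and MBNL proteins give neurons and other tissues their own splice patterns.

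The values were linear signals that the authors had scaled to a common trimmed mean of 100 on every array. Since human probes read lemur RNA, a signal also reflects how well the probes match the lemur sequence, and each probe set was compared only with itself across animals. The Spearman correlation between arrays lay between 0.613 and 0.89, and the median signal of an array between 30.67 and 54.36. On 4 arrays, those of AD-like F2, young adult M2 and old males M1 and M2, the highest poly-A control signal lay between 42.3 and 72.55, and on the 14 others between 420.6 and 4185. These controls are bacterial RNAs added to a sample at labelling. All 7 neuron markers passed the filter, with a summed signal of 15678 to 49331 in young adult, 31015 to 53733 in old and 19665 to 46027 in AD-like animals. Of the 6 astrocyte markers 5 passed, all but GFAP, with sums of 4897 to 19079, 6410 to 15833 and 8277 to 9654. Of the 6 oligodendrocyte markers 5 passed, with sums of 667 to 1279, 601 to 1260 and 882 to 1102. Only 1 of 6 microglial markers passed, with signals of 22 to 266, 4 to 177 and 102 to 142, and AIF1, CSF1R, CX3CR1, C1QB and TYROBP did not. Of the 5 endothelial markers 2 passed, with sums of 417 to 696, 396 to 723 and 416 to 442. In limma, 0 of these markers had an unadjusted p under 0.05 in any of the 3 comparisons.

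The level of the splicing genes as a whole differed more between animals of a group than between groups. For each animal, the deviation of each gene from its mean over the 18 animals was taken on the log2(signal + 16) scale, with the brightest kept probe set of each gene, and the median over the 54 genes was set against the median over all 8660 genes of that animal. This difference was 0.16, 0.16, 0.00 and -0.09 in young adult females F1 to F4. It was -0.48 and -0.46 in young adult males M1 and M2. In old females F1 to F7 it was 0.36, 0.27, 0.18, 0.10, 0.05, -0.02 and 0.04. In old males M1 to M3 it was -0.40, -0.35 and 0.12, and in AD-like females F1 and F2 it was 0.10 and -0.23. Low values were thus seen in both young adult males, 2 of 3 old males and 1 AD-like female, and the groups overlapped. The 4 arrays without poly-A controls lay between -0.46 and -0.23, and the other 14 between -0.48 and 0.36. The 5 males lay between -0.48 and 0.12, and the 13 females between -0.23 and 0.36. The part of these array and sex differences in the results below was not tested, beyond the values given without those arrays or with females only.

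**Figure D1:**
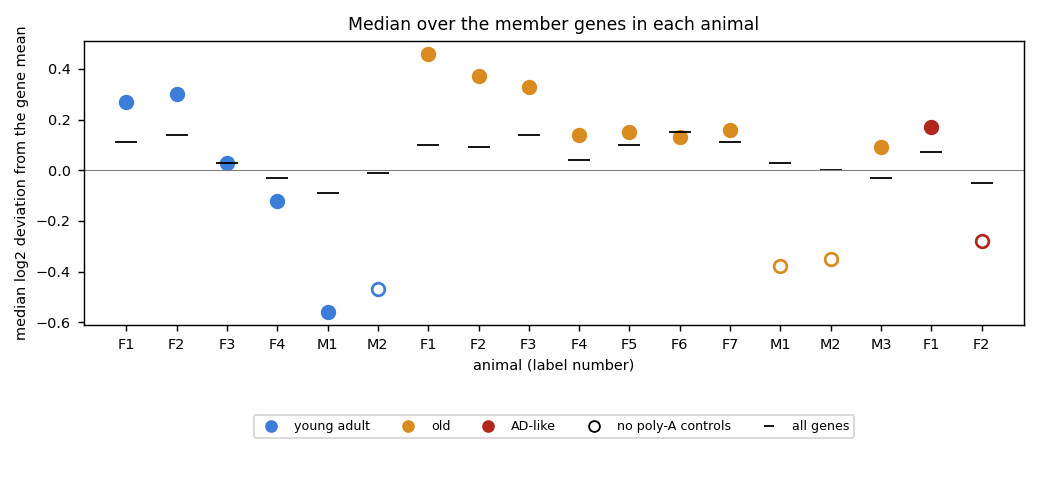
Median log2 deviation from the gene mean over the 54 splicing genes (circles) and over all genes (dashes) in each of the 18 animals, on the log2(signal + 16) scale. Open circles are the 4 arrays without poly-A controls, and the lowest circles are those of young adult males M1 and M2, old males M1 and M2 and the AD-like female F2.

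The first comparison asked which splicing genes differ between old and young adult temporal cortex. No member passed the test: after Benjamini-Hochberg adjustment over the 14567 probe sets limma called 0 of 129 member probe sets, and 0 probe sets of the array (0.0%). The smallest adjusted p of a member was 0.836. At an unadjusted p under 0.05 there were 8 member probe sets (6.2%), against 5.91% of all probe sets, 4 of them higher in old animals (3.1%, against 3.49% of all) and 4 lower (3.1%, against 2.42%). The lower probe sets of SF3B3 and HNRNPA1 passed the filter only with young adult signals. Their place among the lower ones thus depends on the group in which they are high. The t-test named in the study's methods, on linear signals, gave 8 member probe sets higher (6.2%, against 3.28% of all probe sets) and 4 lower (3.1%, against 2.81%) before adjustment and 0 after it. Member probe sets without overlap between old and young adult signals numbered 0, against 0.0343% of all (0.0206% higher and 0.0137% lower). The shares from limma were close to the background.

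With 1 probe set per gene, 43 of 54 splicing genes had a log2 difference above 0 in old animals, with a median of 0.21, against a median of 0.05 over all genes. With quantile normalization this lean was lost, with 27 of 54 genes above 0, a median of 0.02 and an all-gene median of 0.03. It was 0.26 (44 of 54 genes) on the 14 arrays with poly-A controls, 0.14 (37 of 54) in females and 0.10 (38 of 54) without young adult M1. With the beta-actin 3′ to 5′ ratio, meant as a measure of RNA integrity, as a covariate it was 0.35 (46 of 54), with an all-gene median of 0.06. With the GAPDH 3′ to 5′ ratio as a covariate it was 0.26, with an all-gene median of 0.07. The log2 of the beta-actin ratio was -2.38 ± 0.54 in the 6 young adult, -1.92 ± 1.04 in the 10 old and -1.48 ± 1.44 in the 2 AD-like animals (mean ± SD), and its part in the results was not tested beyond the values given with the covariate. It was below 0 on every array. Human probes read lemur RNA here too, so the ratio cannot be read as integrity alone. Over all 129 member probe sets, 80 (62.0%) were above 0, against 53.9% of all probe sets.

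**Figure D2:**
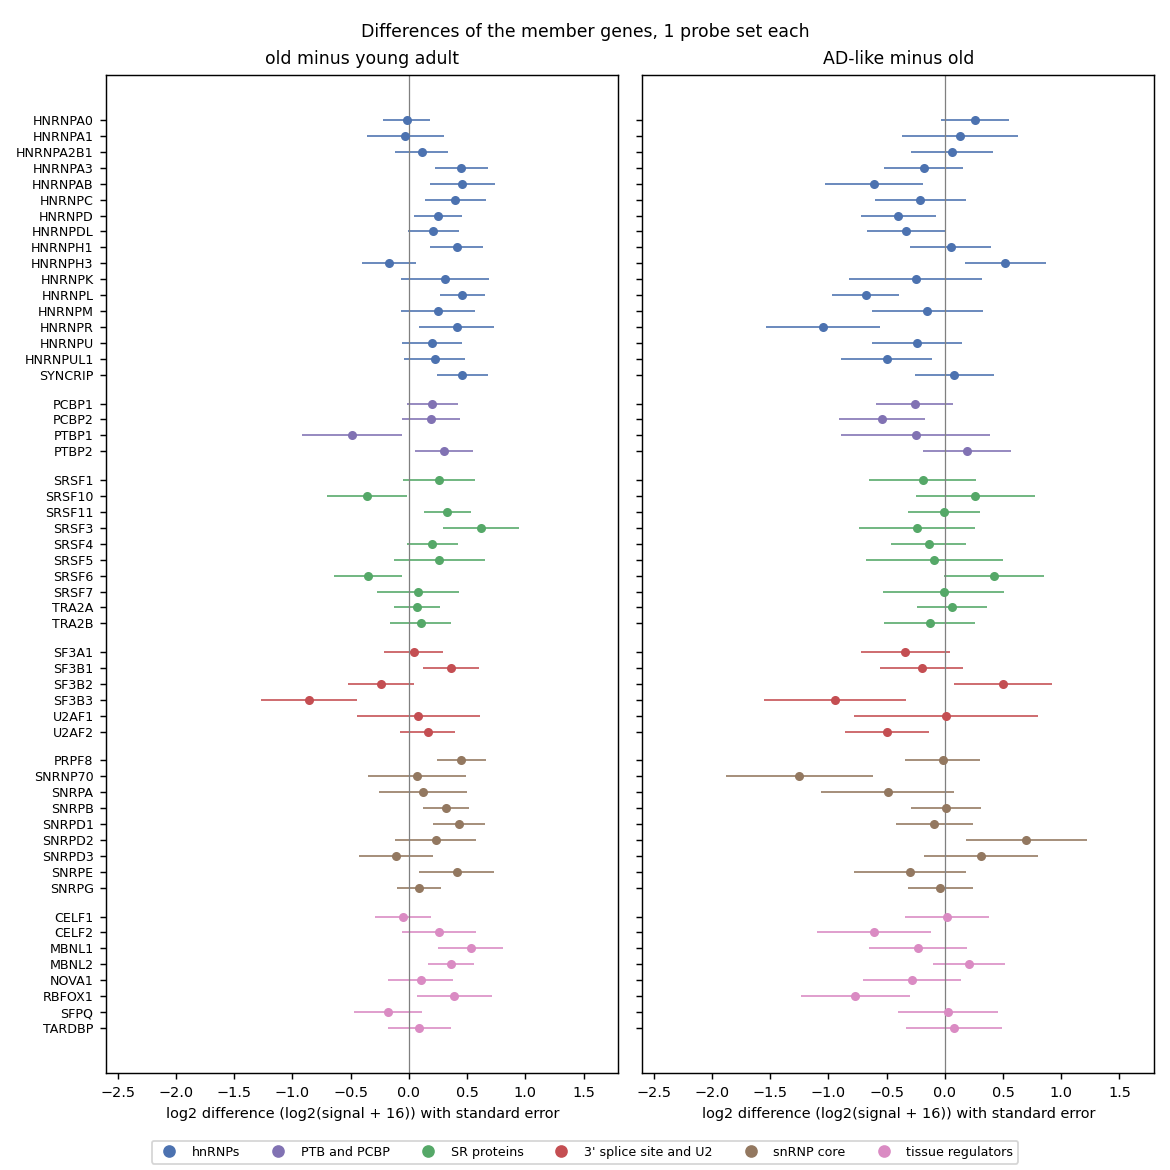
Log2 difference with its standard error for the 54 splicing genes, 1 probe set each, between old and young adult animals (left) and between AD-like and old animals (right), coloured by role. In the left panel 43 genes lie right of 0, and in the right panel 19 do; no difference passed the adjusted test.

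Among the hnRNPs, 14 of 17 genes lay above 0 in old animals (median 0.25), and 9 of 17 with quantile normalization (median 0.09). HNRNPL, an RNA-binding protein that prefers CA repeats, had the smallest p of the hnRNPs that were higher in old animals. In the brighter of its 2 probe sets, young adult signals were 1562.2, 2214.7 and 3504.7 (lowest, median and highest), and old signals 2552.7, 3073.2 and 3472.0. Each of the 10 old animals lay above the young adult median, although the highest signal was that of a young adult. The log2 difference was 0.46 (SE 0.19, unadjusted p = 0.0252, adjusted p = 0.836 in limma). This probe set is among those singled out by the study on the same animals, so its direction is not independent evidence. With quantile normalization it was 0.17. The second probe set of HNRNPL gave 0.38, and 0.08 without young adult M1.

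HNRNPK, a poly(C)-binding hnRNP, had signals of 153.0, 205.1 and 233.8 in young adult and 210.1, 239.3 and 542.0 in old animals in the dimmer of its 2 probe sets. The log2 difference was 0.47 (SE 0.21, unadjusted p = 0.0407), and the brightest HNRNPK probe set gave 0.31 (SE 0.38). The groups overlapped in both. HNRNPA3 (0.45, SE 0.23), HNRNPAB (0.46, SE 0.28) and HNRNPC (0.40, SE 0.26) had differences of like size that did not pass at an unadjusted 0.05. With quantile normalization they gave 0.35, 0.46 and 0.09. The dimmer HNRNPC probe sets gave -0.17, 0.17 and 0.19 as deposited.

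HNRNPH1, which binds G-rich runs, went both ways. In the second brightest of its 3 probe sets, young adult signals were 493.2, 815.8 and 1012.1, and old signals 443.4, 485.5 and 774.1, a log2 difference of -0.58 (SE 0.20, unadjusted p = 0.00987). Its brightest probe set gave 677.5, 1229.3 and 1754.2 in young adult and 1179.6, 1517.6 and 1815.9 in old animals, a log2 difference of 0.41 (SE 0.23, unadjusted p = 0.0899). The old animals were thus on the low side in the one and on the high side in the other. The first of these was also singled out by the study on the same animals. HNRNPA1, which often opposes SR proteins at exons, gave 128.1, 183.4 and 269.6 in young adult and 98.51, 129.4 and 168.4 in old animals in the dimmer of its 2 probe sets, a log2 difference of -0.46 (SE 0.21, unadjusted p = 0.0391). Its brighter probe set, of the x_at kind, which can also bind near-identical transcripts, gave -0.03 (SE 0.33).

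Among the PTB and poly(C)-binding proteins, PTBP2, the neuronal form of the polypyrimidine tract-binding protein, had a log2 difference of 0.30 (SE 0.25). PTBP1, its counterpart outside neurons, had -0.49 (SE 0.43). Its only kept probe set, of the x_at kind, gave 20.38, 122.0 and 226.0 in young adult and 15.45, 69.54 and 184.7 in old animals. It passed the filter only with young adult signals, so its lower value depends on the group in which it is high. Neither PTBP2 nor PTBP1 passed the test. PCBP1 and PCBP2 gave 0.20 (SE 0.22) and 0.19 (SE 0.25). With quantile normalization 1 of these 4 genes was above 0, against 3 of 4 as deposited.

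Of the SR proteins, 8 of 10 genes were above 0 (median 0.15), and 4 of 10 with quantile normalization (median -0.04). SRSF3, a small SR protein, had the highest value, 0.62 (SE 0.33, unadjusted p = 0.0755). SRSF10, which acts as a splicing repressor when dephosphorylated, had -0.36 (SE 0.34), and SRSF6 had -0.35 (SE 0.29). Over the 27 SR probe sets, 15 were above 0 (median 0.04), and 0 had an unadjusted p under 0.05.

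Among the factors of the 3′ splice site and the U2 snRNP, SF3B3, a subunit of the SF3B complex, gave 65.09, 147.8 and 346.7 in young adult and 22.20, 87.58 and 205.9 in old animals. The log2 difference was -0.86 (SE 0.41, unadjusted p = 0.0479), with wide overlap and signals under 150 in 9 of 10 old animals. SF3B1, the subunit that holds the branch site, gave 0.36 (SE 0.24) in its brightest probe set, and 3 of its 5 probe sets were above 0. U2AF2, which reads the polypyrimidine tract, gave 0.16 (SE 0.24).

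Of the snRNP core genes, 8 of 9 were above 0 (median 0.23), and 7 of 9 with quantile normalization (median 0.13). PRPF8, the protein at the catalytic centre of the spliceosome, gave 345.6, 534.6 and 803.1 in young adult and 577.9, 713.0 and 878.6 in old animals. The log2 difference was 0.45 (SE 0.21, unadjusted p = 0.0472), and old and young adult signals overlapped. The Sm protein genes SNRPD1 (0.43, SE 0.22), SNRPB (0.32, SE 0.20) and SNRPE (0.41, SE 0.32) did not pass at an unadjusted 0.05.

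Among the tissue regulators, RBFOX1, a neuronal factor that binds UGCAUG, gave 580.0, 752.3 and 1267.9 in young adult and 925.2, 1230.1 and 1863.0 in old animals in the dimmest of its 3 probe sets. All 10 old animals lay above the young adult median, and 4 above every young adult. The log2 difference was 0.59 (SE 0.25, unadjusted p = 0.0306), and the 3 RBFOX1 probe sets lay between 0.39 and 0.59. With quantile normalization they lay between 0.07 and 0.40, and the brightest had the lowest value. MBNL1, a factor known from myotonic dystrophy, gave 0.53 (SE 0.28) and MBNL2 0.36 (SE 0.20). These were 0.28 and 0.09 with quantile normalization. SFPQ, a nuclear paraspeckle protein, had the smallest p of the members in this comparison. The dimmer of its 2 probe sets gave 353.5, 558.4 and 843.5 in young adult and 223.6, 347.8 and 542.3 in old animals, with a log2 difference of -0.68 (SE 0.22, unadjusted p = 0.00668, adjusted p = 0.836). Its brighter probe set gave -0.18 (SE 0.29). TARDBP, the gene of TDP-43, gave 0.09 (SE 0.27).

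**Figure D3:**
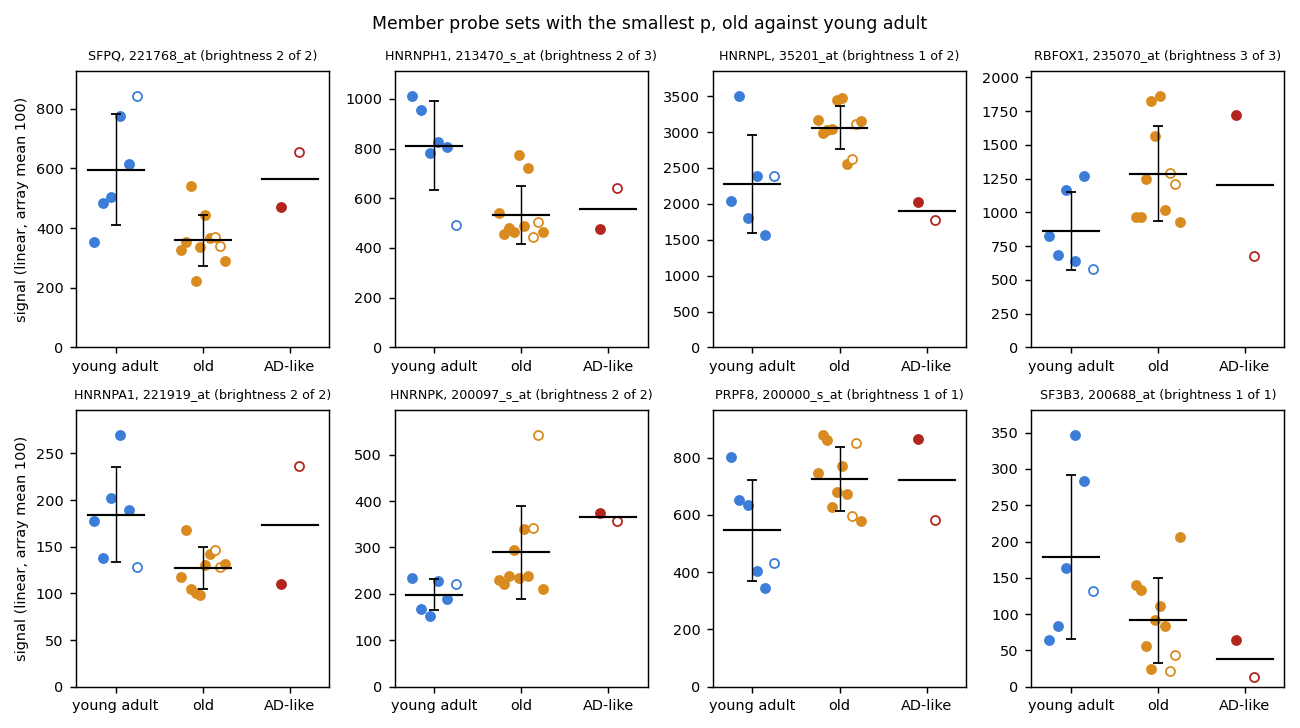
Linear signal of each animal for the 8 member probe sets with the smallest p between old and young adult animals. Lines are group means with SD (no SD for the 2 AD-like animals) and open circles the arrays without poly-A controls. Old animals sit mostly higher for HNRNPL, RBFOX1, HNRNPK and PRPF8 and mostly lower for SFPQ, HNRNPH1, HNRNPA1 and SF3B3, and every pair of groups overlaps between old and young adult.

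Probe sets of one gene often pointed different ways. Of the 54 genes, 38 had 2 or more kept probe sets (113 in all), and in 11 of the 38 all had the same sign between old and young adult animals. They were both above 0 for HNRNPK, HNRNPL, HNRNPU, PCBP2, SNRPB, SRSF5 and U2AF2, and all 3 above 0 for RBFOX1 and SRSF3. Both were below 0 for HNRNPA1 and SFPQ. CELF1, with 6 probe sets, ran from -0.66 to 0.32, SYNCRIP, also with 6, from -0.27 to 0.46, and HNRNPDL from -0.58 to 0.21. All probe sets shared a sign in 18 genes between AD-like and old animals, and in 17 between AD-like and young adult animals.

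**Figure D4:**
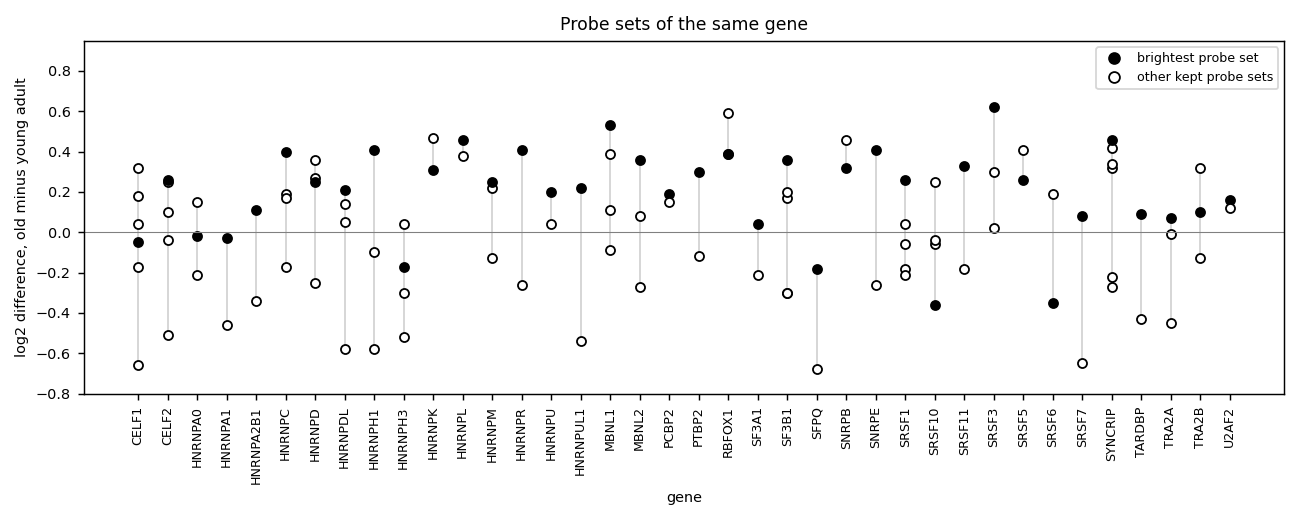
Log2 difference between old and young adult animals for each kept probe set of the 38 genes with 2 or more, with the brightest filled. The probe sets of 11 genes lie on 1 side of 0; CELF1 spans -0.66 to 0.32.

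The second comparison asked what differs in AD-like against healthy old animals. Limma called 0 of 129 member probe sets after adjustment, against 0.00686% of all probe sets, and the smallest adjusted p of a member was 0.826. At an unadjusted p under 0.05 there were 7 member probe sets (5.43%), against 4.84% of all. Of these 4 were higher in AD-like animals (3.1%, against 1.22%) and 3 lower (2.33%, against 3.62%). The higher probe sets of HNRNPH3, SRSF11 and TRA2A passed the filter only with the signal of AD-like F2 (283.9, 211.6 and 283.7). Their place among the higher ones thus depends on an animal in which they are high. The methods' t-test gave 8 higher (6.2%, against 2.94%) and 3 lower (2.33%, against 2.14%) before adjustment and 0 after it. On the 14 arrays with poly-A controls, which leave 1 AD-like animal, limma gave 0 higher (against 0.721% of all probe sets) and 2 lower (1.55%, against 3.58%) before adjustment. The AD-like animals lay outside the range of the old ones in 1 member probe set (0.775%), where they were lower, against 3.02% of all (1.39% higher and 1.63% lower).

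With 1 probe set per gene, 19 of 54 genes were above 0, with a median of -0.15 against -0.05 over all genes. This direction turned with quantile normalization, which gave 38 of 54 genes above 0 and a median of 0.10. It also turned without AD-like F2, with 34 of 54 genes above 0 and a median of 0.09, and without AD-like F1 it was -0.38. The median was -0.31 with females only (12 of 54 genes above 0), -0.33 with sex as a covariate (10 of 54) and -0.02 when the beta-actin ratio entered the model (25 of 54). With the presence of poly-A controls as a block it was 0.01. No direction can therefore be given for the splicing genes as a whole.

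For HNRNPL, in the brighter probe set, the AD-like signals of 2021.0 and 1768.4 were below those of all 10 old animals, whose lowest was 2552.7, and within the young adult range. The log2 difference was -0.68 (SE 0.29, unadjusted p = 0.0273, adjusted p = 0.972), and with quantile normalization it was -0.39. The second HNRNPL probe set gave -0.82 (SE 0.43, unadjusted p = 0.0701), and -0.45 without AD-like F2. HNRNPR, a close relative of SYNCRIP, gave 1421.4, 2388.0 and 3393.9 in old and 1706.1 and 619.6 in AD-like animals, a log2 difference of -1.05 (SE 0.49, unadjusted p = 0.0437). AD-like F2 alone lay below the old range. Without it the difference was -0.33, and without AD-like F1 it was -1.76.

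HNRNPH3, a smaller relative of HNRNPH1, had the smallest p of the members here, with higher values in AD-like animals. In the dimmest of its 4 probe sets, old signals were 58.48, 80.90 and 198.1, and AD-like signals 135.5 and 283.9, a log2 difference of 1.08 (SE 0.37, unadjusted p = 0.00903, adjusted p = 0.826). Of the 10 old animals 9 lay below both AD-like animals, the exception being old M1. The 4 HNRNPH3 probe sets lay between 0.52 and 1.08. In the second brightest, old signals were 196.5, 352.9 and 692.8, and AD-like signals 552.2 and 608.8 (log2 difference 0.72, SE 0.36, unadjusted p = 0.0562). Without AD-like F2 the difference in the dimmest probe set was 0.58.

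SYNCRIP, also called hnRNP Q, gave 108.5, 151.2 and 231.4 in old and 223.3 and 277.1 in AD-like animals in the dimmest of its 6 probe sets (log2 difference 0.68, SE 0.32, unadjusted p = 0.0452). Its brightest probe set gave 0.08 (SE 0.34), and all of them ran from -0.47 to 0.68. HNRNPH1 in its second brightest probe set gave 476.2 and 640.5 in AD-like animals, within the old range, with a log2 difference of 0.07.

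Among the SR proteins, SRSF11 gave 48.57, 60.49 and 164.6 in old and 119.5 and 211.6 in AD-like animals in the dimmer of its 2 probe sets, a log2 difference of 0.93 (SE 0.41, unadjusted p = 0.0334). The brighter one gave -0.01 (SE 0.31). TRA2A, a splicing activator that binds GAA-rich exonic sequence, gave 11.22, 82.62 and 193.2 in old and 131.1 and 283.7 in AD-like animals in the dimmest of its 3 probe sets (log2 difference 1.23, SE 0.57, unadjusted p = 0.0435). Its brightest probe set gave 0.06 (SE 0.30). Without AD-like F2 the differences of SRSF11 and TRA2A were 0.55 and 0.72. Over the SR probe sets, which share genes, 18 of 27 were above 0 (median 0.30), against 48.1% of all probe sets. This number was 25 of 27 with quantile normalization, 20 of 27 on the arrays with poly-A controls and 22 of 27 without AD-like F2. With 1 probe set per gene it was 3 of 10 (median -0.05), and 10 of 10 with quantile normalization (median 0.14). With females only, the brightest probe sets of SRSF6, SRSF11 and TRA2A gave 0.12, 0.17 and 0.11. Those of the other SR genes lay between -0.50 and -0.09.

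U2AF2 had the lowest log2 difference of the members, -1.61 (SE 0.64, unadjusted p = 0.0195), in the dimmer of its 2 probe sets, with 25.01, 157.8 and 219.3 in old and 47.67 and 16.01 in AD-like animals. Old F4 and M2 lay below AD-like F1. The brighter U2AF2 probe set gave -0.50 (SE 0.36). The probe sets of HNRNPH3, SYNCRIP, SRSF11, TRA2A and U2AF2 with the smallest p were thus the dimmest of their gene. SNRNP70, the U1-specific protein that helps to read the 5′ splice site, gave -1.25 (SE 0.63, unadjusted p = 0.059), but -0.12 when AD-like F2 was left out and -2.38 when F1 was. SNRPD2 gave 0.70 (SE 0.52), with 0.25 and 1.16 in these 2 settings. RBFOX1 gave -0.77 (SE 0.47) in its brightest probe set, and its 3 probe sets lay between -0.77 and -0.19. Without AD-like F2 they gave -0.08, 0.00 and 0.46, and without AD-like F1 between -1.46 and -0.39, so that no direction can be given for RBFOX1.

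**Figure D5:**
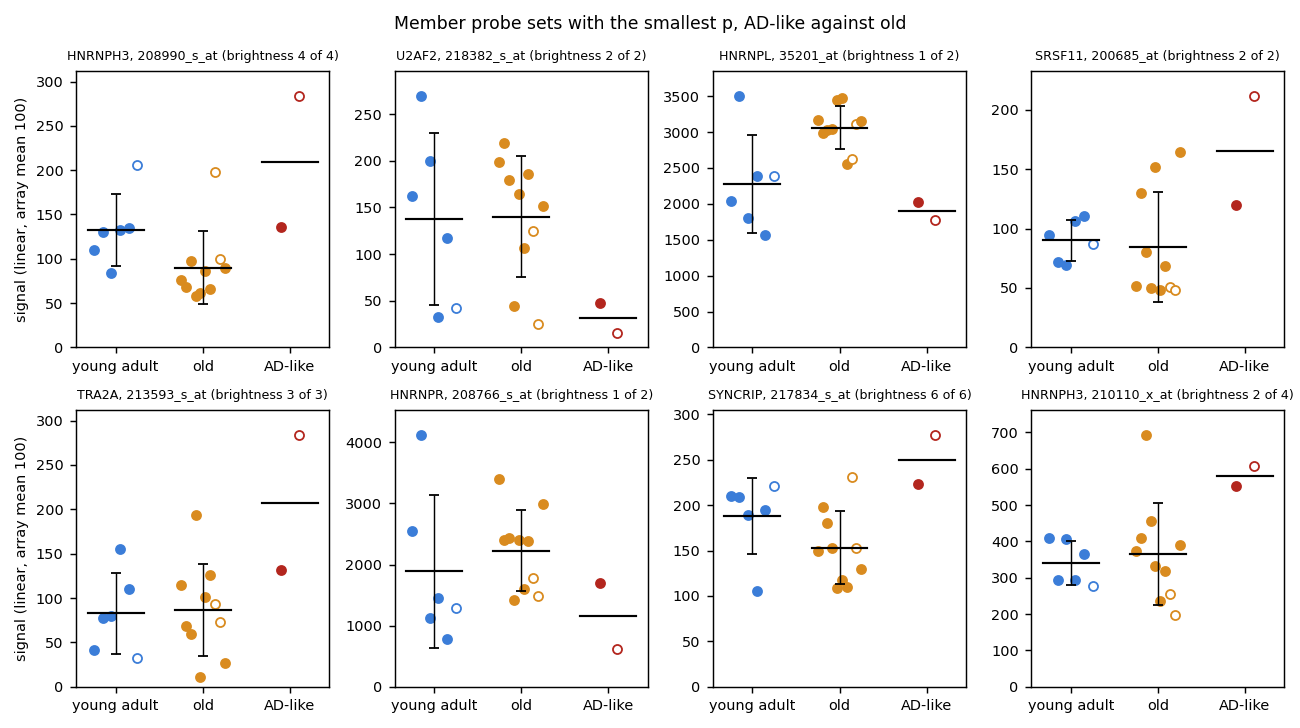
Linear signal of each animal for the 8 member probe sets with the smallest p between AD-like and old animals. Lines are group means with SD (no SD for the 2 AD-like animals), and open circles the arrays without poly-A controls. Only for HNRNPL do both AD-like animals lie outside the range of the 10 old animals.

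The third comparison set AD-like against young adult animals, and shares its AD-like and young adult animals with the other two. Limma called 0 of 129 member probe sets after adjustment, against 0.0% of all. At an unadjusted p under 0.05 there were 3 (2.33%), against 4.34% of all, 1 higher (0.775%, against 1.13%) and 2 lower (1.55%, against 3.21%). The methods' t-test gave 5 higher (3.88%, against 2.19%) and 0 lower (against 1.39%) before adjustment and 0 after it. Both AD-like animals lay outside the young adult range in 7 member probe sets (5.43%), against 5.59% of all. They were higher in 6 (4.65%, against 2.62%), of HNRNPD, HNRNPK, SRSF11, CELF2, HNRNPH3 and SYNCRIP, and lower in 1 (0.775%, against 2.97%), of SF3B3. The SRSF11 probe set passed the filter only with the signal of AD-like F2, and the SF3B3 probe set only with young adult signals.

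HNRNPK, in the dimmer probe set, gave 374.1 and 356.1 in AD-like animals, above the young adult highest of 233.8 (log2 difference 0.84, SE 0.34, unadjusted p = 0.0216, adjusted p = 1.0). The brighter HNRNPK probe set gave 0.06. SF3B3 gave 64.10 and 13.29, below the young adult lowest of 65.09 by a narrow margin in AD-like F1 (log2 difference -1.80, SE 0.65, unadjusted p = 0.0112). Without AD-like F2 this difference was -1.08. U2AF2, in the dimmer probe set, gave -1.49 (SE 0.67, unadjusted p = 0.038), and -0.99 without AD-like F2, and its young adult signals of 32.43, 139.6 and 269.5 overlapped those of the AD-like animals. The brighter U2AF2 probe set gave -0.34.

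TRA2A, in the dimmest probe set, gave 1.22 (SE 0.60, unadjusted p = 0.056), with young adult signals of 32.11, 78.59 and 155.0, and 0.71 without AD-like F2. This probe set passed the filter only with the signal of AD-like F2, in which it is high. The brightest TRA2A probe set gave 0.13. HNRNPH3, in the second brightest probe set, gave 0.76 (SE 0.38, unadjusted p = 0.0567), with young adult signals of 277.4, 329.1 and 409.1, all below both AD-like animals. TRA2B, the paralogue of TRA2A, gave 414.5, 627.9 and 843.5 in young adult and 810.8 and 1206.7 in AD-like animals in the second brightest of its 3 probe sets (log2 difference 0.72, SE 0.39, unadjusted p = 0.0783), and without AD-like F2 the difference was 0.43. The brightest TRA2B probe set gave -0.03 and the dimmest -0.88. SNRNP70 gave 31.02, 238.5 and 326.5 in young adult and 164.2 and 21.52 in AD-like animals (log2 difference -1.18, SE 0.66). Without AD-like F2 this was -0.05, and without AD-like F1 -2.31. MBNL2 gave 1739.0, 2686.1 and 3547.0 in young adult and 4311.6 and 3227.0 in AD-like animals in its brightest probe set (log2 difference 0.57, SE 0.32), and 0.36 without AD-like F1. The dimmer MBNL2 probe sets gave -0.34 and -0.33. Over the member genes, 32 of 54 were above 0 (median 0.07, all genes 0.00). This direction turned with females only (20 of 54 and -0.20), with sex as a covariate (21 of 54 and -0.20), with array weights (-0.04) and without AD-like F1 (-0.14). It also turned without young adult M2 (-0.07) and with the label number as a block (-0.38). When the beta-actin ratio entered the model the median was 0.36 (45 of 54), and no direction can be given. Over the SR probe sets 23 of 27 were above 0 (median 0.24), against 51.3% of all probe sets, and 23 of 27 with quantile normalization. With 1 probe set per gene it was 8 of 10 (median 0.07). With females only, the brightest probe sets of SRSF1, SRSF5, SRSF6 and SRSF7 turned to between -0.33 and -0.03. Those of SRSF10 and TRA2B stayed below 0, and those of SRSF3, SRSF4, SRSF11 and TRA2A stayed above it.

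The other genes of the splicing pathway numbered 127, of which 96 had a kept probe set: 42 of the spliceosome, 19 SR-related proteins and kinases, and 35 further regulators. With 1 probe set each, limma called 0 after adjustment in all 3 comparisons. At an unadjusted 0.05, old animals were higher than young adults in 6 and lower in 0 (6.25% together), with a median of 0.12, against 309 and 196 of all 8660 genes (5.83%). Between AD-like and old animals 0 were higher and 3 lower (3.12%), with a median of -0.17, against 99 and 332 of all genes (4.98%). Between AD-like and young adult animals 0 were higher and 2 lower (2.08%), against 94 and 285 (4.38%). Among all their probe sets, SON, a nuclear speckle protein, gave 630.8, 1644.9 and 2226.4 in young adult and 1922.4, 2575.3 and 4205.3 in old animals, with all 10 old animals above the young adult median (log2 difference 0.86, SE 0.26, unadjusted p = 0.00361, adjusted p = 0.836). SRRM2, another speckle protein, gave 767.0 and 322.0 in AD-like animals, below all 10 old animals, whose lowest was 796.1 (log2 difference -1.06, SE 0.32, unadjusted p = 0.00381, adjusted p = 0.706). Both probe sets were singled out by the study on the same animals, and neither was the brightest of its gene. With the brightest probe set of each of the 96 genes, the highest log2 difference of old over young adult animals was 0.83. For AD-like against old animals, the smallest adjusted p of these brightest probe sets in limma was 0.964.

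The difference between old and young adult animals was also compared between the sexes. In limma, the interaction of sex and age had an unadjusted p under 0.05 in 3 of 129 member probe sets (2.33%), against 4.85% of all, and in 0 after adjustment. The median log2 difference over the 54 genes was 0.14 in females and 0.26 in males, of which there were 2 young adult and 3 old.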

How the data were processed

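RNA of 18 temporal cortex samples was hybridized to 1 array each. The authors processed the arrays with GCOS 1.2, per the labels, and the deposited intensity values are linear, with every array brought to a trimmed mean of 100. Detection calls were not used here. Signals of at least 150 on at least 3 arrays kept 14567 probe sets, which were transformed to log2(signal + 16) and compared between the 3 groups on all 18 arrays with limma 3.58.1 (R 4.3.3), with p adjusted by Benjamini-Hochberg over all kept probe sets and a threshold of 0.05. The model takes 1 spread for all groups, so the 2 AD-like animals are assumed to vary like the rest. The number of arrays limits the precision. A gene was represented by its brightest kept probe set (by mean signal), and symbols came from the array's platform annotation. Probe sets named are the 8 with the smallest p in each comparison, those singled out in the study's tables, and, chosen after their values were seen, the other examples given for each role. The members and lists were chosen with earlier results of these data known. Alternatives covered the offset, normalization, filter, variance model, test, sex, label number, poly-A controls, 3′ to 5′ ratios and each animal. The fit was tested on simulated data. Animals with the same label number are different animals. No sequences were used here.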

Additional observations from a re-analysis of the deposited data

Results flagged for a closer look

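In 4 of 36 groups of signals checked for the named probe sets, 1 animal stood far from the others of its group by Dixon's test, which chance alone passes in about 1 of 20 groups. In the dimmer probe set of HNRNPK, old M2 had the highest old signal, 542.0, against 342.5 in the next animal. In the dimmest of HNRNPH3, old M1 had the highest, 198.1, against 100.3. In the second brightest of HNRNPH1, young adult M2 had the lowest young adult signal, 493.2, against 780.2. In the dimmest of SYNCRIP, young adult F4 had the lowest, 105.0, against 188.6. Of these 4 arrays, 3 were among those without poly-A controls, and the part of this in the values was not tested.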

How the results depend on the processing

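Limma and the methods' t-test called 0 member probe sets after adjustment under each of the 16 alternatives and without each of the 18 animals, in all 3 comparisons. With the label number as a replicate block the median over member genes was 0.20 between old and young adult, -0.55 between AD-like and old and -0.38 between AD-like and young adult animals, and member probe sets lower at an unadjusted p under 0.05 numbered 18 of 129 and 14 of 129 in the last 2, against 9.84% and 7.87% of all probe sets. Same-numbered animals correlated by 0.057 to 0.47 in their deviations and share only a number. Leaving out each animal moved the median between 0.10 and 0.28, between -0.38 and 0.09, and between -0.14 and 0.25 in the 3 comparisons. The second brightest probe set of HNRNPH1 between AD-like and old animals turned from 0.07 to -0.01 with array weights, -0.02 with sex as a covariate, -0.17 on arrays with poly-A controls and -0.14 without AD-like F2, and reached 0.28 without another animal. For the 8 probe sets of smallest p in each comparison and this one, the other 810 of 814 alternative values kept their sign. Member probe sets higher at an unadjusted p under 0.05 between old and young adult animals ranged from 1 to 16 over the alternatives, and those lower from 2 to 7. The shares of all probe sets ranged from 2.88% to 6.94% and from 1.17% to 3.89% over the alternatives with a filter. Without a filter these shares were 1.83% and 3.52%. A filter on a mean signal of at least 200 moved the all-gene median to 0.12 between old and young adult and -0.15 between AD-like and old animals, against 0.22 and -0.13 for the members. The causes were not tested.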
